A study of Mus musculus with 8 samples.

Results

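The genes described here are 10 ATP-dependent chromatin remodelers related to Chd4, namely Chd1, Chd2, Chd5, Chd6, Chd7, Chd8 and Chd9 of the CHD family, the CHD1-like gene Chd1l, and Smarca1 and Smarca5, the motors of the ISWI family. They were chosen by name, and all 10 were found among the 55487 genes of the deposited tables. The libraries came from pancreatic beta cells, which make insulin, flow-sorted from islets of mice given tamoxifen. There were 4 Control libraries and 4 libraries labelled Chd4KO, from mice whose beta cells had lost Chd4. The labels give no further alleles for either group, and neither the driver of the deletion nor the age of the mice is given in the sources used here. Each library has its own animal number, taken as a separate mouse, and all Control numbers are lower than all Chd4KO numbers, so that whatever they mark and the genotype cannot be told apart. In such bulk samples, fewer cells of a type and less RNA per cell cannot be told apart.

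CHD and ISWI proteins are motors that use ATP to slide, space or evict nucleosomes, the spools of histone around which DNA is wound. CHD proteins carry paired chromodomains that bind histone tails or DNA, and ISWI motors carry a domain that senses the linker DNA between nucleosomes. Chd3, Chd4 and Chd5 are alternative motors of the NuRD complex, which joins remodeling to histone deacetylation. Close paralogs can take over part of a lost motor's work, so the comparison of Chd4KO with Control asked whether transcripts of the related motors were higher where Chd4 was deleted.

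Levels are in TPM, read counts divided by gene length and scaled to the same total in each library, so levels can be compared between genes. Means are given ± SD over the 4 libraries of a group. Reads in genes numbered 16.4 to 41.0 M (1 M is 1000000 reads) in Control and 14.9 to 20.2 M in Chd4KO libraries (exact permutation test, two-sided, p = 0.0857). The 10 genes held between 62 and 23319 reads in any library. The 10 beta cell markers examined summed to 429981 to 469400 TPM in Control and 396394 to 652730 TPM in Chd4KO, mostly from Ins1 and Ins2 (Control means 107974 and 294023 TPM). Of the 10, 2 passed as lower in Chd4KO, the transcription factor Mafa and the glucose transporter Slc2a2 (limma adjusted p = 0.0229 and 0.0310), beside 2.97% of all tested genes called in either direction. An unadjusted limma p under 0.05 was found for 6 of the 10, all lower, against 16.2% of all genes. The estimates of 3 lay above 0. Chd4KO replicate 4 had the highest hormone share (65.6% of TPM, against 39.7 to 52.3% elsewhere) and the fewest genes at 1 TPM or more (12702, against 14788 to 15923). Chd4KO replicate 2 held 35070 TPM of 15 acinar (enzyme-secreting cell) markers, against 1361 TPM in Control replicate 2 and 2.53 to 181 TPM in the other 6 libraries. Within Control, replicate 1 was the library that most often stood alone above the others, in 585 of 15189 tested genes (3.85%). Endothelial markers summed to 5.58 to 6.08 TPM in Control and 6.38 to 9.42 TPM in Chd4KO, without overlap, and mesenchymal and glial markers to 0.704 to 1.76 TPM over the 8 libraries. Ductal markers summed to 115 to 152 TPM in Control and 68.2 to 246 TPM in Chd4KO, and 1 of 5 tested, the chloride channel Cftr, fell from 4.04 ± 2.85 to 0.251 ± 0.218 TPM (limma adjusted p = 0.0238, held in 14 of 19 other settings). Leukocyte markers summed to 125 to 157 TPM in Control and 110 to 227 TPM in Chd4KO, and 2 of 6 tested, Cd68 and Fcer1g, rose (limma adjusted p = 0.0132 and 0.0482, held in 15 of 19 and 6 of 20 other settings). Among other hormone cells of the islet, alpha cell markers summed to 1480.5 to 2848 TPM in Control and 790 to 4144 TPM in Chd4KO. Delta and PP cell markers summed to 1758 to 3835 TPM in Control and 1784 to 3724 TPM in Chd4KO. None of the 3 tested genes of either list passed. The part of these other cell types in the results was not tested.

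All 10 genes reached 1 TPM in at least 4 libraries and were tested with limma on log2(TPM + 1), with p-values adjusted over all 15189 genes tested. Changes are differences on that scale, which understates the change of low genes. None of the 10 passed an adjusted p under 0.05, against 2.97% of all tested genes, and 1 of them, Chd7, had an unadjusted p under 0.05, against 16.2% of all. Under the 20 other settings tried, Chd5 passed in 4 of 19, Chd7 in 1 of 20 and the other 8 in none. Point estimates lay below 0 for 9 of the 10, against 74.8% of all tested genes, and for 7 they lay below the median change of all tested genes. That median was -0.25 (log2), and the median over the 10 genes was -0.42. When libraries were scaled by the median of gene ratios, the medians became -0.02 and -0.19, and the estimates of Chd8 and Chd9 joined that of Chd5 above 0 (3 of 10, against 47.6% of all genes). None of the 10 passed under that scaling, against 4.76% of all genes. With TPM as deposited, none of the 10 had groups without overlap, against 14.8% of all genes. In each of the 10 genes the lowest of the 8 libraries was Chd4KO replicate 4, as in 67.4% of all tested genes. Without that library the medians were -0.10 for the 10 genes and -0.05 for all.

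**Figure D1:**
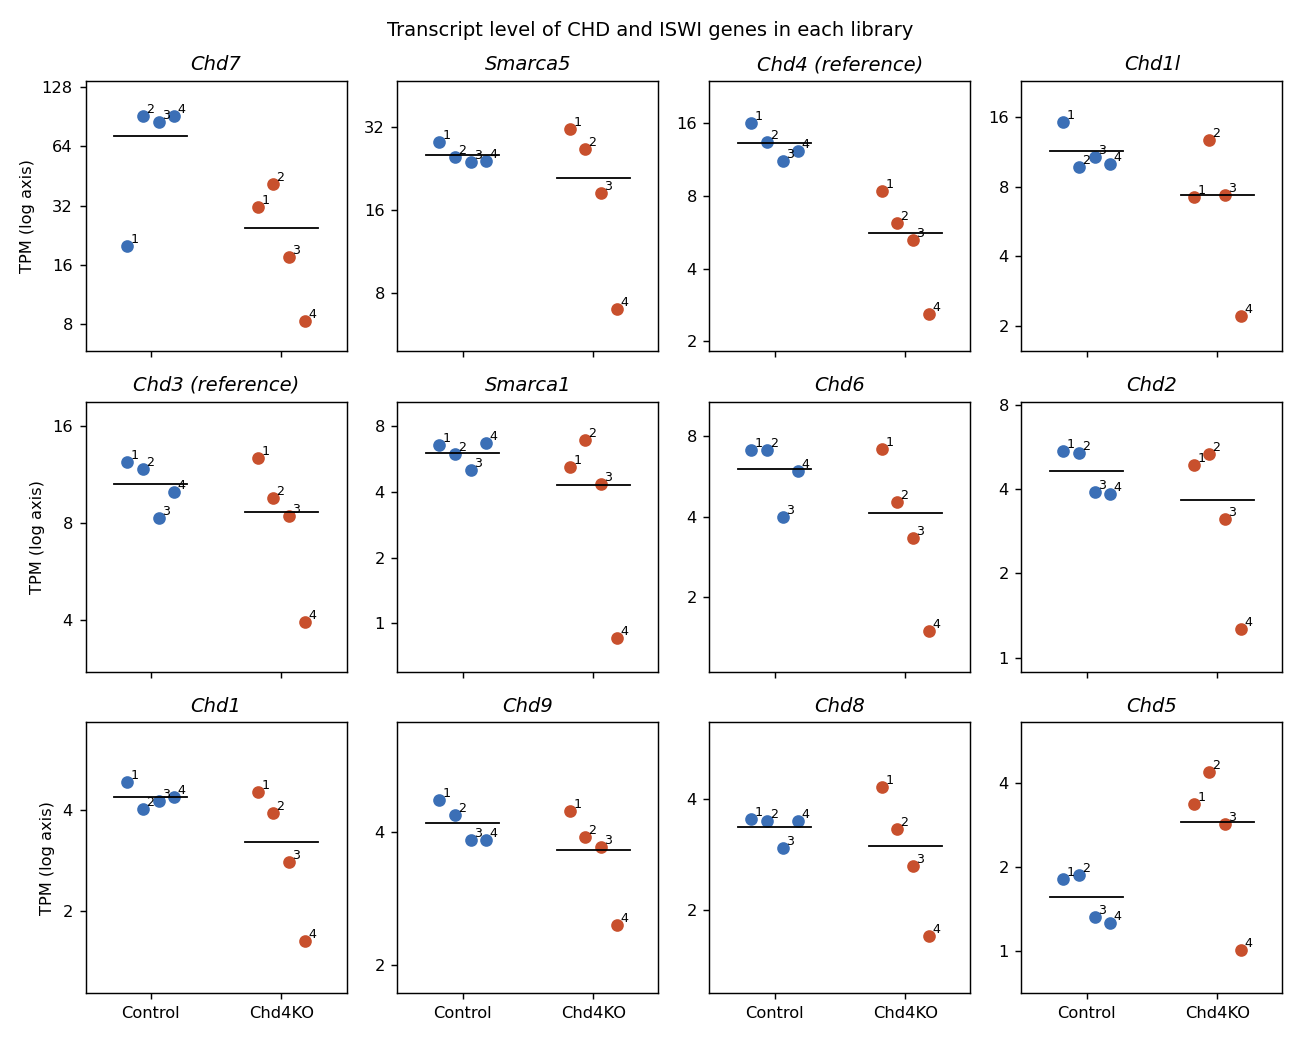
TPM (log axis) of the 10 genes and of Chd4 and Chd3 in each of the 8 libraries; points are libraries with their replicate number, and bars are the means of 4. Chd7 in Control replicate 1 (19.9 TPM) lies far below the other Control libraries (84.9 to 91.7 TPM), Chd5 in 3 of 4 Chd4KO libraries lies above all Control libraries, and Chd4KO replicate 4 is lowest in every panel.

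Chd4 itself checks the labels. Chd4 (ENSMUSG00000063870, mm10 chromosome 6, 125095981 to 125130591) had 15.98, 13.4, 11.1 and 12.3 TPM in the Control libraries, replicates 1 to 4, and 8.38, 6.18, 5.27 and 2.59 TPM in those of Chd4KO. The means were 13.2 ± 2.08 against 5.604 ± 2.40 TPM, with every Chd4KO library below every Control library. Its change was -1.18 ± 0.29 (log2, SE, limma adjusted p = 0.0725), and it passed in 8 of 20 other settings, among them median-of-ratios scaling (-0.94, limma adjusted p = 0.0112). The deposited value is for the whole gene, and deleted and retained exons cannot be told apart in it.

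Chd5, the NuRD motor best known from neurons and as a tumor suppressor, was the least abundant of the 10 in Control and the 1 gene whose estimate lay above 0. The gene (ENSMUSG00000005045) lies on mm10 chromosome 4 from 152338651 to 152390194, plus strand. The Control libraries held 1.81, 1.88, 1.33 and 1.26 TPM, in the order of their replicate numbers, and the Chd4KO libraries 3.38, 4.402, 2.85 and 1.013 TPM. Thus 3 Chd4KO libraries exceeded all Control libraries, and Chd4KO replicate 4 lay below them all. Mean levels were 1.57 ± 0.321 against 2.91 ± 1.42 TPM, and the change was 0.53 ± 0.30 (log2, SE, 95% interval -0.15 to 1.203, limma adjusted p = 0.407).

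The Chd5 result turned on how the libraries were scaled and on Chd4KO replicate 4. After median-of-ratios scaling the 4 Control libraries lay at 1.19 to 1.70 and the 4 Chd4KO libraries at 1.88 to 3.97 scaled TPM. The lowest of these Chd4KO values, 1.88, was that of replicate 4, whose TPM was divided by a size factor of 0.540. The groups then did not overlap, as in 15.6% of all tested genes under that scaling (7.85% in the higher direction), and Chd5 was the 1 gene of the 10 with no overlap. The change was 0.68 ± 0.19 (SE, 95% interval 0.26 to 1.11), still outside the threshold (limma adjusted p = 0.0832). Chd5 passed as higher under quantile normalisation (limma adjusted p = 0.0451), where 3.07% of all tested genes passed as higher. It passed with array weights too, which gave Chd4KO replicate 4 a weight of 0.0863 (adjusted p = 0.0282, limma), beside 3.81% of all genes. Without Chd4KO replicate 4 it was 0.82 higher (limma adjusted p = 0.0329, beside 2.96% of genes), and at median-of-ratios scaling without that library the adjusted p from limma was 0.0153, beside 3.77%. Leaving out Chd4KO replicate 2, which had the highest Chd5 level and the highest acinar markers, gave 0.34 (limma adjusted p = 0.484), and the part of acinar RNA in the Chd5 level was not tested. Counting error was moderate, since Chd5 rested on 115 to 334 reads per library.

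A second gene lies inside Chd5 on the opposite strand. Gm13645, a transcript of unknown function at 152352198 to 152353641, was singled out after its values were seen. It had 0.849 to 1.46 TPM in Control and 2.90 to 4.05 TPM in Chd4KO, without overlap, as in 14.8% of all tested genes (either direction). It rose by 1.07 ± 0.18 (log2, SE, limma adjusted p = 0.0152), a call held in 14 of 19 other settings, on 6 to 24 reads per library. The libraries do not mark strand, so its reads and reads from within Chd5 cannot be told apart. Of the 9 tested genes that overlap 1 of the 10, Gm13645 was the 1 that passed, beside 2.97% of all tested genes. Gm45640, within Chd9 on the same strand, was also singled out after its values were seen. It had 2.28 to 7.22 TPM in Control and 0.0890 to 0.950 TPM in Chd4KO. These ranges did not overlap, as in 11.3% of all tested genes in the lower direction. The change of Gm45640 was -1.44 ± 0.33 (SE, limma adjusted p = 0.0580), and it passed as lower in 4 of 19 other settings. Gm45641, within Chd9 on the opposite strand, had an estimate of -1.19 ± 0.38 (SE, limma adjusted p = 0.166) and passed in none of 20.

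**Figure D2:**
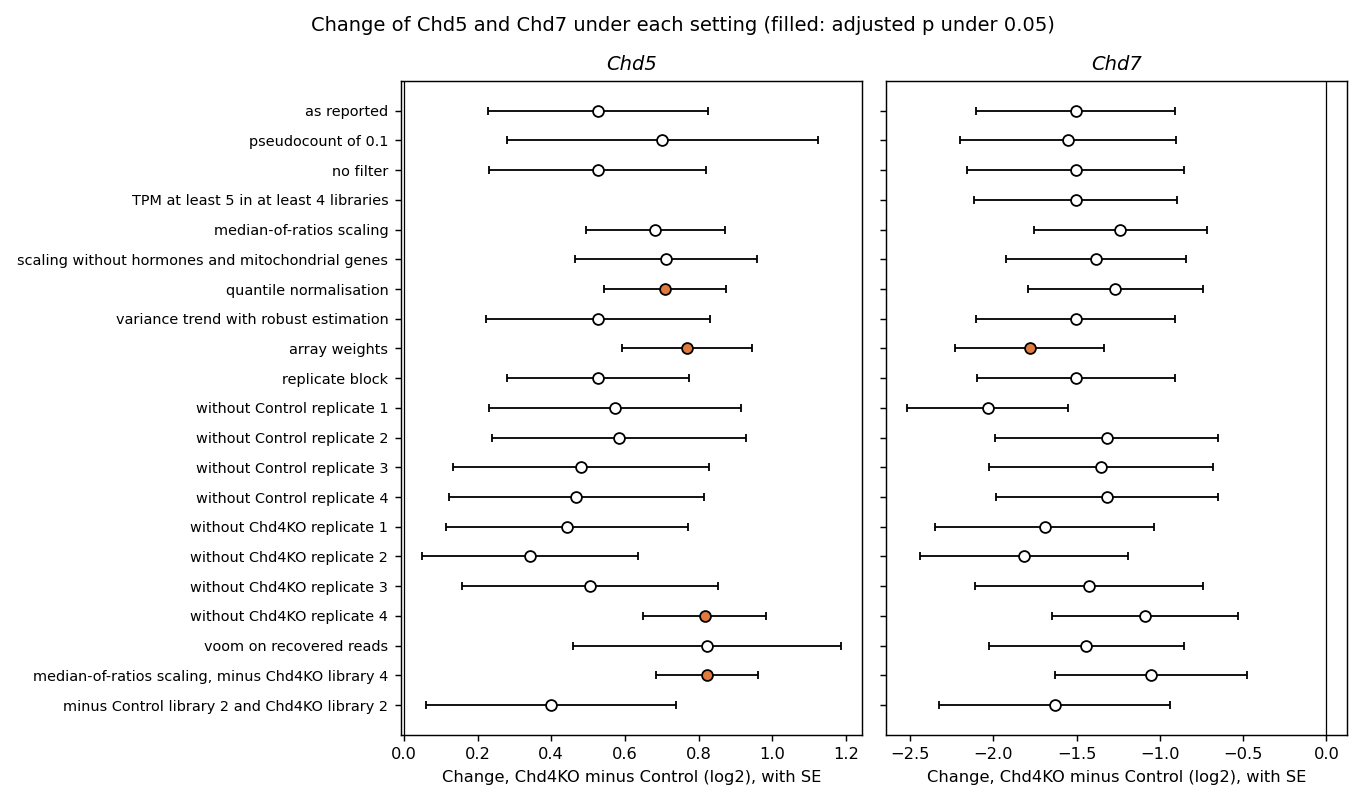
Change of Chd5 (left) and Chd7 (right) between Chd4KO and Control on the log2 scale, with its SE, under the reported fit and 20 other settings (Chd5 was not tested at a minimum of 5 TPM); filled points have a limma adjusted p under 0.05. Chd5 is above 0 in every setting that tested it and passes in 4, and Chd7 is below 0 in every setting and passes with array weights alone.

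Chd3, the other NuRD motor, averaged 10.6 ± 1.83 TPM across Control and 8.65 ± 3.64 TPM across Chd4KO libraries, a change of -0.34 ± 0.31 (SE, limma adjusted p = 0.568). Ratios within a library do not depend on its scaling, and the 3 NuRD motors were therefore expressed as shares of their summed TPM. Chd4 made up 53.0, 49.7, 53.7 and 52.2% of that sum in the Control libraries and 34.2, 30.7, 31.9 and 34.4% in the Chd4KO libraries. Chd5 made up 6.01, 6.95, 6.40 and 5.35% in Control and 13.8, 21.9, 17.2 and 13.5% in Chd4KO. Chd3 made up 39.9 to 43.4% in Control and 47.5 to 52.1% in Chd4KO. None of the 3 shares overlapped between the groups, and Chd4KO replicate 4 lay with the other Chd4KO libraries in each. Shares of 1 sum are tied to each other, so that the Chd5 and Chd3 shares together are larger wherever the Chd4 share is smaller, and no test is given for them. The sum includes the deleted gene, so a lower Chd4 level alone would raise the Chd5 and Chd3 shares. Their lack of overlap therefore does not show a higher level of either, and no share over all genes stands beside it. The sum itself was 25.4 ± 4.10 TPM for Control, against 17.2 ± 7.20 TPM for Chd4KO. The mean Chd5 level in Chd4KO (2.91 TPM) remained below the mean Chd4 level there (5.604 TPM) and far below that of Chd4 in Control (13.2 TPM).

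**Figure D3:**
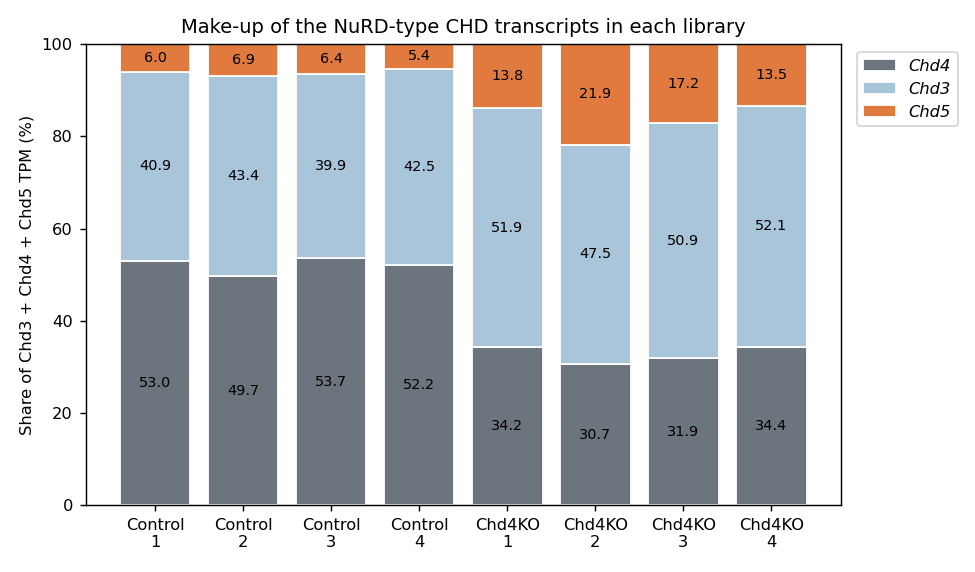
Share of Chd4, Chd3 and Chd5 in their summed TPM (percent) for each of the 8 libraries. The Chd4 share is 49.7 to 53.7% in Control and 30.7 to 34.4% in Chd4KO, and the Chd5 share is 5.35 to 6.95% in Control and 13.5 to 21.9% in Chd4KO.

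Chd7 was the most abundant of the 10 genes and the most variable. Its protein binds enhancers, and loss of a copy of the human gene causes CHARGE syndrome. The gene (ENSMUSG00000041235) lies on chromosome 4 from 8690406 to 8867659, plus strand, and the Control libraries held 19.9, 91.3, 84.9 and 91.7 TPM. The Chd4KO libraries held 31.4, 41.02, 17.6 and 8.297 TPM. All Chd4KO libraries were thus below 3 of the Control libraries, while Control replicate 1 lay inside the Chd4KO range. Means were 72.0 ± 34.8 against 24.6 ± 14.5 TPM, and the change was -1.51 ± 0.60 (log2, SE, 95% interval -2.86 to -0.15, limma adjusted p = 0.259). The spread of Chd7 among Control libraries on the log2 scale was larger than that of 98.9% of tested genes, and among Chd4KO libraries larger than that of 87.6%. Without Control replicate 1 the change was -2.03 (limma adjusted p = 0.104), and with array weights, which gave that library 0.731 of a unit weight, it was -1.78 (limma adjusted p = 0.0382, beside 5.17% of genes lower).

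The low Chd7 value of Control replicate 1 rested on 1946 reads. Its depth was the lowest of the Control libraries, at 16.4 M reads, and the part of depth in the value was not tested. With TPM as deposited, Chd4 and 6 of the 10 remodelers (Chd1, Chd1l, Chd2, Chd8, Chd9 and Smarca5) had their highest Control level there. The share of all tested genes with that trait is not given. Control replicate 1 had the largest median-of-ratios size factor of the 8 libraries (1.19). After that scaling Chd4, Chd1l and Smarca5 were still highest there, and Chd1, Chd2, Chd8 and Chd9 were not. The protein-coding genes on either side of Chd7, Rab2a and Asph, were at 516 and 6.33 TPM in that library, beside Control means of 477 ± 30.6 and 6.19 ± 0.661 TPM. The genes most like Chd7 over the 8 libraries, once each group's mean was removed, were Ung (a uracil-DNA glycosylase), Dyrk3 (a kinase) and Cfap20 (a cilium protein), each at a Pearson correlation of 0.99. This likeness is a description over 8 libraries that share depth and composition, and 100 of 11064 genes compared had a correlation over 0.9. Ung had 0.155 TPM in Control replicate 1 and 1.47 to 1.64 TPM in the other Control libraries, and Dyrk3 had 12.2 TPM and 21.9 to 23.9 TPM. Ung, Dyrk3 and Cfap20 were picked by their likeness to Chd7. Low values in Control replicate 1 therefore follow from the choice and give no separate support to the Chd7 value there. None of the 3 passed the test between the groups (limma adjusted p = 0.604, 0.379 and 0.720).

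The other motors of the Chd7 subfamily were low. Chd8, a binding partner of beta-catenin and CTCF linked to autism, lies on chromosome 14 from 52198151 to 52257780. It averaged 3.36 ± 0.276 TPM across Control and 2.99 ± 1.099 TPM across Chd4KO libraries. Its 95% interval ran from -0.68 to 0.34 around a change of -0.17 (limma adjusted p = 0.690), and the change was 0.03 after median-of-ratios scaling. Chd9 (chromosome 8, 90828352 to 91054516), which was described with nuclear receptors, had means of 4.20 ± 0.435 and 3.64 ± 0.843 TPM, a change of -0.18 with an interval of -0.62 to 0.26 (limma adjusted p = 0.623) and 0.04 after median-of-ratios scaling. Chd4KO replicates 1 to 3 held 3.71 to 4.48 TPM of Chd9, inside or just below the Control range of 3.83 to 4.73 TPM. Chd6 (chromosome 2, 160946978 to 161109075), linked to the oxidative stress response, had 7.07, 7.10, 3.99 and 5.92 TPM in the Control libraries. Its Chd4KO libraries had 7.15, 4.52, 3.34 and 1.499 TPM, so 2 lay within or just above and 2 below the Control range (change -0.55 ± 0.35, SE, limma adjusted p = 0.449).

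Chd1 and Chd2, which act with transcribing RNA polymerase and space nucleosomes over gene bodies, were close in level. Chd1 (chromosome 17, 15704967 to 15772610) averaged 4.38 ± 0.348 TPM against 3.23 ± 1.28 TPM in Chd4KO (change -0.40 ± 0.25, SE, limma adjusted p = 0.433). Its upper interval bound of 0.15 was the lowest of the 10 after that of Chd7. Chd2 (chromosome 7, 73426638 to 73541830) averaged 4.66 ± 0.889 against 3.65 ± 1.85 TPM (change -0.37 ± 0.33, SE, limma adjusted p = 0.553). Without Chd4KO replicate 4 the Chd4KO mean of Chd2 was 95.6% of the Control mean, and that of Chd1 was 85.7%.

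Chd1l, also called ALC1, has no chromodomain and is switched on by PARP enzymes at DNA damage. The gene lies on chromosome 3 from 97560742 to 97610203. It had 15.3, 9.76, 10.7 and 10.03 TPM in the Control libraries and 7.204, 12.7, 7.395 and 2.21 TPM in the Chd4KO libraries. In Chd4KO, 3 libraries lay below all Control libraries, and replicate 2 lay inside the Control range. The change was -0.72 ± 0.40 (SE, 95% interval -1.63 to 0.18, limma adjusted p = 0.399).

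The ISWI motors differed in level from each other more than between the groups. Smarca5 (SNF2H), the motor of the ACF, CHRAC, WICH, NoRC and RSF complexes, lies on chromosome 8 from 80698507 to 80739497. It averaged 25.3 ± 2.07 TPM across Control and 20.9 ± 10.7 TPM across Chd4KO libraries. Its Chd4KO libraries held 31.4, 26.7, 18.5 and 7.001 TPM, so that 1 lay above and 2 below the Control range of 23.9 to 28.3 TPM (change -0.44 ± 0.40, SE, limma adjusted p = 0.568). Without Chd4KO replicate 4 the Chd4KO mean was 101% of the Control mean. Smarca1 (SNF2L), the motor of NURF, on chromosome X from 47809368 to 47892974, averaged 6.04 ± 0.749 TPM against 4.31 ± 2.53 TPM (change -0.58 ± 0.41, SE, limma adjusted p = 0.482). Its 0.855 TPM in Chd4KO replicate 4, on 62 reads, was 14.2% of the Control mean, against 90.4% for the mean of the other 3. Smarca1 made up 17.4 to 21.7% of the summed ISWI TPM in Control and 10.9 to 20.4% in Chd4KO.

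**Figure D4:**
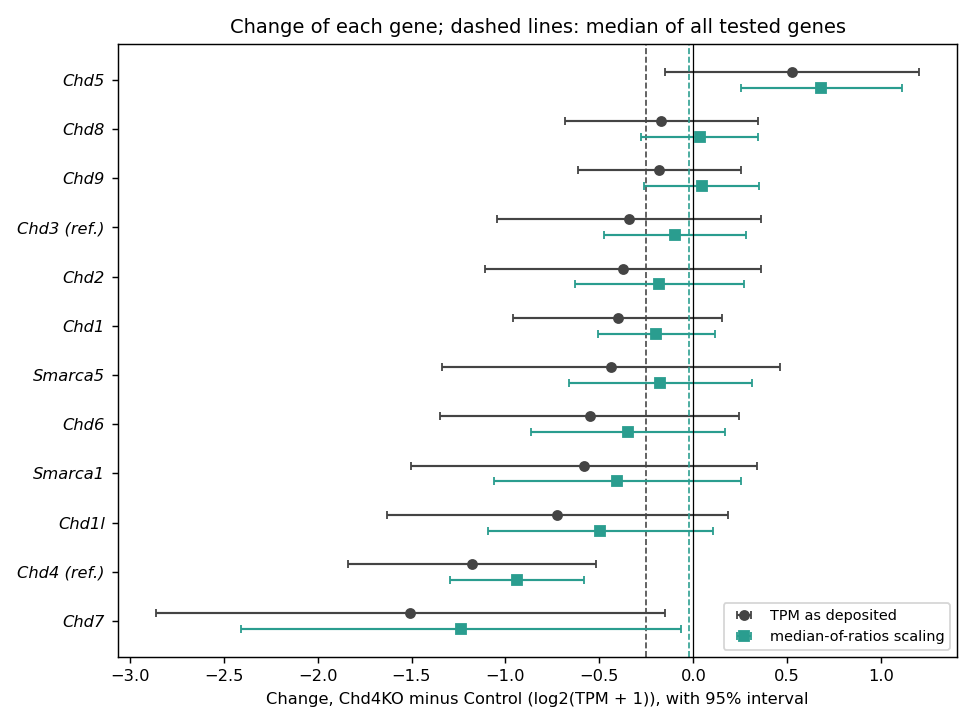
Change of each gene between Chd4KO and Control on the log2(TPM + 1) scale with its 95% interval from limma, for TPM as deposited (circles) and after median-of-ratios scaling (squares); dashed lines are the medians of all 15189 tested genes (-0.25 and -0.02). With TPM as deposited, 9 of the 10 genes have intervals that include 0, Chd7 and the reference Chd4 lie wholly below 0, and at median-of-ratios scaling Chd5 lies wholly above it.

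The intervals set limits on higher levels in Chd4KO. For Chd1, Chd1l, Chd2, Chd6, Chd8, Chd9, Smarca1 and Smarca5 the upper bound of the change lay between 0.15 and 0.46 (log2), and for Chd7 at -0.15. Only the interval of Chd5, with an upper bound of 1.203, reached a change of 1 on the log2(TPM + 1) scale. This also held at median-of-ratios scaling, with 1.11 for Chd5. On that scale a change of 1 is more than a doubling of TPM, the more so for low genes. The bounds for TPM as deposited stand beside a median change of -0.25 over all tested genes.

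The order of levels was led by Chd7 and Smarca5. In Control, Chd7 exceeded Smarca5 in 3 of 4 libraries, and Smarca5 lay above Chd4 in all, without overlap. Chd4, Chd1l and Chd3 followed with ranges that overlapped between neighbours, and Smarca1 lay below Chd3 without overlap. Smarca1, Chd6, Chd2, Chd1 and Chd9 formed a run of neighbours whose ranges overlapped, from 6.04 down to 4.20 TPM, although Chd6 exceeded Chd2 in 4 of 4 libraries. Chd8 and then Chd5 lay below them without overlap. In Chd4KO, Chd7 exceeded Smarca5 in 2 of 4 libraries and Chd5 had come close to Chd8, at 2.91 and 2.99 TPM, with Chd8 higher in 2 of 4. Against all tested genes, the Control mean of Chd7 was above 91.6% of genes, that of Smarca5 above 74.9% and that of Chd5 above 9.77%.

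Summed over the 10 genes, TPM was 97.5, 158, 145 and 155 in the Control libraries and 104, 113, 66.2 and 27.96 in the Chd4KO libraries. The Chd4KO mean was 55.95% of the Control mean. Chd7 made up 20.4% of the sum in Control replicate 1, 57.7 to 59.1% in the other Control libraries and 26.6 to 36.4% in Chd4KO. Without Chd7 the sums averaged 66.98 ± 7.64 TPM against 53.2 ± 24.9 TPM, and 64.3 ± 13.6 TPM in Chd4KO without replicate 4. Without both Chd7 and that library the Chd4KO mean was 96.0% of the Control mean, and Chd4KO replicates 1 and 2, at 72.5 and 71.8 TPM, exceeded 3 of 4 Control libraries.

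**Figure D5:**
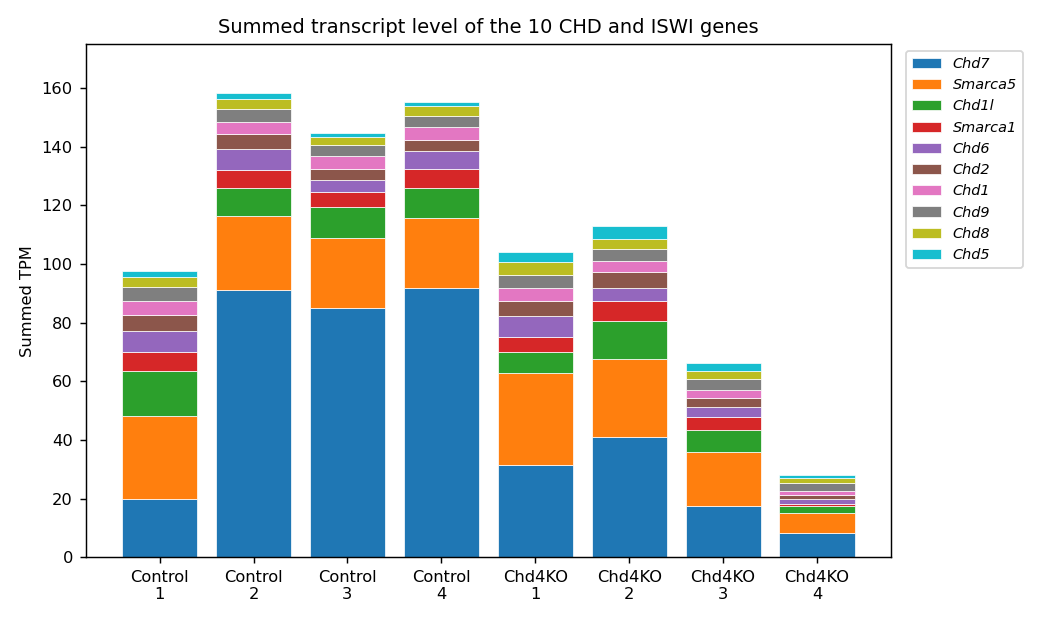
Summed TPM of the 10 remodelers in each library, stacked by gene from the most to the least abundant in Control. Control replicates 2 to 4 reach 145 to 158 TPM with 57.7 to 59.1% from Chd7, and Chd4KO replicate 4 reaches 27.96 TPM.

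The share of Chd4 in all CHD transcripts, taken as Chd1 to Chd9 together with Chd1l, followed Chd7 as well. It was 17.6% in Control replicate 1, 8.22 to 8.82% in the other Control libraries and 6.51 to 9.73% in Chd4KO. With Chd7 left out of the sum and Chd1l kept in it, the Chd4 share was 22.2% ± 0.246 for Control and 13.4% ± 1.41 for Chd4KO, without overlap. The share without Chd1l is not given.

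Once group means were removed, 9 of the genes varied together and Chd7 did not follow them closely. Over the 36 pairs without Chd7 the Pearson correlation across the 8 libraries had a median of 0.91 and a range of 0.68 to 0.98. Over the 9 pairs with Chd7 the median was 0.51 and the range 0.32 to 0.58. These are descriptions over libraries that share depth and composition, and Chd4KO replicate 4 enters each of them.

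The 10 genes have long transcripts, with merged exons of 4309 to 23148 bases against a median of 3447 bases over tested genes. Change moved with length across all genes: the median was -0.18 for tested genes up to 2000 bases and -0.37 for those over 8000 bases, the class that holds 7 of the 10. Without Chd4KO replicate 4 these medians were -0.06 and -0.08. The 5958 tested genes in the length range of the 10 had a median change of -0.34, beside -0.42 for the 10. The part of transcript length in the changes of single genes was not tested. None of the 20 nearest tested protein-coding genes on either side of the 10 passed (lowest limma adjusted p = 0.177), beside 2.97% of all tested genes. These neighbours lay between 735 bases (Supt16, beside Chd8) and 4677397 bases (Arrdc4, beside Chd2) away.

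Other remodelers and partners were described by 4 lists. None of 10 tested accessory subunits of ISWI complexes passed, with a median change of -0.36, and 9 of the 10 estimates lay below 0. Over all tested genes 2.97% passed, 74.8% of estimates lay below 0, and the median was -0.25. After median-of-ratios scaling the median of the ISWI subunits was -0.14. Pole3, a histone-fold subunit of CHRAC, was at 22.8 ± 2.23 and 14.5 ± 5.75 TPM (limma adjusted p = 0.312). Its groups did not overlap, as in 11.3% of tested genes in the lower direction. Rbbp7, a histone-binding protein, was at 197 ± 34.1 and 157 ± 32.3 TPM (limma adjusted p = 0.452). None of 10 further NuRD subunits passed, with a median change of 0.02 against -0.25 for all genes and 6 of the 10 estimates above 0. After median-of-ratios scaling the median was 0.29, against -0.02 for all genes. That scaling divides Chd4KO replicate 4 by 0.540. Mbd3, Cdk2ap1 and Mta3 were highest in that library (140, 116 and 40.7 scaled TPM), while Gatad2a was lowest there (21.6 scaled TPM). Without it, the Chd4KO means as deposited of Mbd3, Cdk2ap1 and Mta3 were 106, 96.1 and 104% of Control, and that of Gatad2a was 137%. The part of that library in the median was not tested. Rbbp4 and Rbbp7, which NuRD shares with ISWI complexes, were counted in the ISWI list alone. Their changes were -0.49 and -0.33, and -0.22 and -0.04 after median-of-ratios scaling. Hdac2, a deacetylase of NuRD, was at 52.6 ± 7.09 and 43.9 ± 11.9 TPM, and Mta1, a scaffold subunit, at 23.4 ± 2.96 and 19.7 ± 7.76 TPM. Mta2, another scaffold subunit, was singled out after its values were seen. It averaged 30.7 ± 1.49 against 38.5 ± 13.1 TPM (change 0.24, limma adjusted p = 0.652). After median-of-ratios scaling its groups did not overlap, as in 7.85% of tested genes in the higher direction (change 0.52, limma adjusted p = 0.0604). It passed as higher in 1 of 20 other settings, median-of-ratios scaling without Chd4KO replicate 4.

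Of 17 tested SNF2-family ATPases outside the CHD and ISWI families none passed, 16 estimates lay below 0, and the median was -0.46. Over all tested genes 74.8% of estimates lay below 0, with a median of -0.25. After median-of-ratios scaling the median of these ATPases was -0.26, against -0.02 for all genes. Smarca4 (BRG1), a motor of SWI/SNF complexes, was at 61.5 ± 5.33 and 36.0 ± 12.2 TPM, with every Chd4KO library below every Control library, as in 11.3% of tested genes. Its change was -0.83 ± 0.28 (SE, limma adjusted p = 0.191), and it passed as lower in 4 of 20 other settings, among them median-of-ratios scaling (limma adjusted p = 0.0483). Smarcal1, which remodels stalled replication forks, was at 19.7 ± 3.03 and 10.9 ± 3.59 TPM, also without overlap, and passed as lower in 3 of 20 other settings. None of 12 proteins that bind or work with the remodelers passed, and all 12 estimates lay below 0, with a median of -0.28. That median was near the -0.25 of all tested genes, and after median-of-ratios scaling it was -0.01, against -0.02 for all. Brd7, a subunit of the PBAF form of SWI/SNF, was at 10.4 ± 0.439 and 7.15 ± 3.02 TPM (limma adjusted p = 0.349), and Arid2 of the same complex at 8.43 ± 0.960 and 6.17 ± 3.59 TPM (limma adjusted p = 0.481).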

How the data were processed

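RNA of 8 libraries was measured by SMART-Seq v4 and Nextera XT sequencing, per the labels' protocols. The authors deposited 1 TPM value per gene and library. The submitters' processing notes name FastQC, Trimmomatic, HISAT2, HTSeq, DESeq2 and mm10, without roles. Symbols, positions and merged exon lengths came from GENCODE M21 of that build (55227 of 55487 identifiers). Whole reads were recovered from TPM times length for 98.5 to 98.7% of values above 0, within 0.05 of a read. TPM has a fixed total, so a larger hormone share lowers every other gene.

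Genes at 1 TPM or more in at least 4 libraries entered limma 3.58.1 (R 4.3.3) as log2(TPM + 1); the model held genotype alone, and tests were two-sided, Benjamini-Hochberg adjusted over 15189 genes, threshold 0.05. The fit was also run on simulated counts with known changes. Apart from those changes all simulated libraries shared the same expression profile and spread, so a library that stands apart, as Chd4KO replicate 4, was not simulated. Depth was compared by an exact permutation test. Fits that left out a library kept the same genes.

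The 10 genes and all lists were chosen with earlier results of these data known. Named beside the 10, Chd3 and Chd4 are, from each remodeler list, the called genes or the 2 with the smallest unadjusted p, and the 3 named protein-coding genes most correlated with Chd7, which had both the smallest p and the highest TPM of the 10. Mta2 was named outside that rule, after its values were seen. Bap18 of the ISWI list was not found under that symbol. Alternatives covered the pseudocount (0.1), the filter (none, or 5 TPM), scaling, variance trend, array weights, a replicate block, each library left out, and voom on recovered reads. Python 3.11.15, pandas 2.3.3 and matplotlib 3.10.9 were also used.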

Additional observations from a re-analysis of the deposited data

Results flagged for a closer look

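Within groups of 4 libraries, single values were compared with the gap that separates 1 value from the rest in about 1 in 20 groups by chance, over 54 groups of values. Chd7 in Control replicate 1 (19.9 TPM) stood below the other Control libraries (84.9 to 91.7 TPM). Ung (0.155 TPM against 1.47 to 1.64 TPM) and Dyrk3 (12.2 TPM against 21.9 to 23.9 TPM), which were chosen for their likeness to Chd7, stood apart in the same library. The share of Chd4 in all CHD transcripts, whose sum includes Chd7 and Chd1l, was highest there (17.6% against 8.22 to 8.82%). That share was also low in Chd4KO replicate 2 (6.51% against 9.22 to 9.73%). Chd8 in Control replicate 3 was at 2.95 TPM, against 3.48 to 3.52 TPM, a gap within a narrow range. Over all 15189 tested genes, Control replicate 1 stood apart as the lowest Control library in 0.764% and as the highest in 3.85%.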

How the results depend on the processing

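Of 235 refits of the 10 remodelers, Chd4 and Chd3, 215 kept direction and side of the threshold, 13 passed newly and 7 changed sign. Chd8 changed to 0.0338 (median-of-ratios scaling), 0.0640 (quantile normalisation) and 0.0309 (median-of-ratios scaling without Chd4KO library 4), and spanned -0.321 to 0.00343 when single libraries were left out, the last without Chd4KO replicate 4. Chd9 changed to 0.0448 and 0.0916 under the first 2 of these, and Smarca5 to 0.0227 under the last; the cause was not tested. Called remodelers of the 10 numbered 1 under quantile normalisation, 2 with array weights, 1 at median-of-ratios scaling without Chd4KO library 4, and 0 to 1 when single libraries were left out. Over all genes the 451 calls became 220 at a minimum of 5 TPM, 723 with median-of-ratios scaling (444 higher, 279 lower, against 233 and 218), 755 with quantile normalisation, 1364 with array weights, 992 with median-of-ratios scaling without Chd4KO library 4, 137 without replicate 2 of both groups, and 171 to 829 when single libraries were left out. Calls among the 51 tested genes of the other lists, Chd3 and Chd4 included, went from 0 to 3 with median-of-ratios scaling or quantile normalisation, 1 with scaling that omits hormones and mitochondrial genes, 2 with array weights, 1 with voom on recovered reads, 4 at median-of-ratios scaling without Chd4KO library 4, and 0 to 1 when single libraries were left out; no list gene was called higher but Mta2. The mean Chd4 share of CHD transcripts was 2.01 percentage points lower in Chd4KO (-2.01), with a range of -2.86 to 0.26 when single libraries were left out, the last without Control replicate 1. The summed TPM of the 10 genes stayed at 47.5 to 67.9% of Control. A replicate block gave 274 calls over all genes and none of the 10; same-numbered libraries correlated at -0.02, 0.43, 0.08 and 0.04, so the numbers were not taken as pairs. The 2 settings without Chd4KO library 4 at median-of-ratios scaling and without replicate 2 of both groups were chosen after seeing the data.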
